A study of Mus musculus with 62 samples.

Results

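The estrogen-related receptors (Esrra, Esrrb and Esrrg, encoding ERRα, ERRβ and ERRγ) and 3 further regulators of the mitochondrial gene program (Nrf1, Gabpa and Tfam) were followed in maps of active chromatin of mouse skeletal muscle. A region belonged to a gene when the authors' annotation named it as the gene nearest to the region. Over 20 lists this selected 335 of 601616 regions, of which 327 lay in 16 peak lists and 8 in 4 lists of regions with altered acetylation. 5 of the 6 genes had a region. Gabpa had 0 in every list.

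The study profiled H3K27ac (acetylation of histone H3 at lysine 27, found at active enhancers and promoters) and H3K4me2 (dimethylation at lysine 4, found at enhancers and promoters more generally) by ChIP-seq in 8 groups of male C57BL/6 mice, each with 2 replicates for either mark. Sedentary wild-type animals gave 4 muscles, the fast-twitch extensor digitorum longus (EDL) and quadriceps (Quad), the slow-twitch soleus (Sol) and the diaphragm (Dia). The other 4 groups were also from quadriceps, namely Sed (sedentary, wild type), Ex (wild type, voluntary wheel running for some weeks, taken hours after the last bout), Wt (sedentary, wild type) and mTg (sedentary, carrying the PGC1a transgene, which the muscle creatine kinase promoter drives in muscle fibers). Wt mice were littermates of mTg mice. Each EDL, Sol or Dia replicate pooled muscles of several animals, whereas each quadriceps replicate was a muscle of 1 animal. The labels gave no ages.

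The ERRs are orphan nuclear receptors that bind DNA without a known natural hormone and depend on coactivators, chiefly PGC1α, the product of Ppargc1a. ERRα and ERRγ are best known in skeletal muscle for driving genes of fatty acid oxidation, the tricarboxylic acid cycle and oxidative phosphorylation, and ERRγ is most abundant in oxidative, slow-twitch muscle. NRF1 and the ETS factor GABP (Gabpa encodes its DNA-binding subunit) control nuclear genes for respiratory chain subunits and also the gene Tfam. TFAM packages mitochondrial DNA and starts its transcription. H3K27ac and H3K4me2 mark the regulatory DNA of these genes. They do not measure their RNA or protein.

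The sequence that carries the ERR-related observations is AAGGTCA, the half-site to which ERRs bind, extended by its 5′ base. It was searched on both strands in the central 1000 bases of each region of at least that width. It was present in 4 of the 5 Esrrb and Esrrg regions that gained acetylation in mTg quadriceps, against 31.1% of the 1592 hyperacetylated regions searched and 21.4% of all 23951 mTg H3K27ac regions searched. The 7 matches over the whole length of these regions, of which 1 lies outside the central 1000 bases (the first of Esrrb at +87.2 kb), are shown with 25 bases on each side to give the half-site in its context. Capitals mark the half-site, and all 7 lie in introns by the GENCODE gene annotation (mm10, GRCm38.p6). Distances run to the centre of the region as the authors' annotation gives them. For Esrrg they run from its most upstream start where positive and from its most downstream start where negative.
Esrrb region at +77.0 kb, chr12:86498512-86498568, minus strand: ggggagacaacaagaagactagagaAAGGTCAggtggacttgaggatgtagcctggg
Esrrb region at +77.0 kb, chr12:86498729-86498785, plus strand: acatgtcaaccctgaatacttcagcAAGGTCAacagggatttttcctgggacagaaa
Esrrb region at +87.2 kb, chr12:86508185-86508241, minus strand: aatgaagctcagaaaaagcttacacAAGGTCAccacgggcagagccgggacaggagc
Esrrb region at +87.2 kb, chr12:86508869-86508925, minus strand: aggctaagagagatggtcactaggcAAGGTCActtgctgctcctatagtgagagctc
Esrrg region at +0.815 kb, chr1:187609873-187609929, minus strand: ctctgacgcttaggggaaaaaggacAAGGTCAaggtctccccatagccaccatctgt
Esrrg region at +154 kb, chr1:187763122-187763178, minus strand: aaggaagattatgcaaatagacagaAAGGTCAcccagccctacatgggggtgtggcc
Esrrg region at +154 kb, chr1:187763610-187763666, plus strand: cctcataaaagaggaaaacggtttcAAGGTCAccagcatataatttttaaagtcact
The last of them reads TCAAGGTCA, the full 9-letter form of the ERR element. The Esrrb region with the largest gain, at the downstream start, held 0 matches. So did both sufficiently wide regions that lost acetylation with exercise, one each of Tfam and Esrrg, against 23.5% of 2186 hypoacetylated regions searched. A match is a run of letters and not a measured binding site.

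Esrrb and Esrrg each have several start sites in RefSeq that did not share their acetylation among the groups. The 250 bases before 3 of them are shown because H3K27ac ranked highest in Dia and Sol at the first and in mTg at the next, and was called in Quad alone at the last. Capitals mark CpG dinucleotides, whose density separates constitutive from tissue-restricted promoters in general.
Esrrb upstream start, chr12:86360867-86361116, plus strand: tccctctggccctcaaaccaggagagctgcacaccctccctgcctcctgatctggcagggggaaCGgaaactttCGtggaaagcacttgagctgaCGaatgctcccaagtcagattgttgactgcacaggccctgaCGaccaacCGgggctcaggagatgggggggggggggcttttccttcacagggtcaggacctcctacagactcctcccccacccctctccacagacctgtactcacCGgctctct
Esrrb downstream start, chr12:86421394-86421643, plus strand: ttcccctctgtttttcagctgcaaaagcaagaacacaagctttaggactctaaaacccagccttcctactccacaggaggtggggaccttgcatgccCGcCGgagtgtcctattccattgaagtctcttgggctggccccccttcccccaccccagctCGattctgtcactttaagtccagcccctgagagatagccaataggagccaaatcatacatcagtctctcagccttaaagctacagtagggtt
Esrrg start 4, chr1:187997577-187997826, plus strand: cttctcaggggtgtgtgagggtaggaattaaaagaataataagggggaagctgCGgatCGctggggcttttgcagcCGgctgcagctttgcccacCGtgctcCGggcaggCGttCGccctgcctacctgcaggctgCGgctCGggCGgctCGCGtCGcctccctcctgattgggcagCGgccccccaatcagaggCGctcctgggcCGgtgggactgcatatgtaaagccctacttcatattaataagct
These windows hold 6, 3 and 16 CpG, where the median over 32851 RefSeq starts was 6. The starts of Esrra, Nrf1 (upstream), Gabpa and Tfam held 22, 33, 19 and 19. AAGGTCA was absent from all 11 member start windows and present in 4.08% of all starts. CCGGAAG, the core of an ETS element, was present in 6.91% of all starts and in 2 of the 11 member windows, those of Gabpa and Tfam, 93 and 47 bases before the start. Capitals mark the element in the 2 windows below.
Gabpa, chr16:84835020-84835048, minus strand: agctgagggacCCGGAAGcacttaccctc
Tfam, chr10:71238074-71238102, minus strand: cctgccgcggaCCGGAAGtccgggcttcc

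Before the values, the libraries themselves were examined. The 32 histone libraries held 6.41 to 24.2 M tags (median 19.5 M) and the 11 inputs 7.72 to 22.9 M. The Wt and mTg H3K27ac libraries were the shallowest of that mark (11.7 to 14.9 M tags). Skeletal muscle fiber markers had an H3K27ac region for 5 to 8 of 8 genes in each group, with median percentiles of 79.6 to 97.9. Every group also had regions at 4 of 4 endothelial and 4 of 4 fibroblast genes, 3 to 4 of 4 macrophage genes, 1 to 2 of 2 satellite cell genes, 1 to 3 of 3 adipocyte genes and 2 of 2 neuronal genes. The cardiac genes Myh6 and Nppa had 0 regions in all 8 groups. In such tissue, fewer nuclei of a type and less mark per nucleus cannot be told apart, and the share of these cells in any result below was not tested. At regions hyperacetylated in mTg, H3K4me2 was higher in the libraries labelled mTg than in those labelled Wt at 50.9% of 289 matched regions, and at hypoacetylated regions at 64.6% of 82. H3K4me2 thus did not follow acetylation in these libraries, and they are named by their labels only.

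Regions of the members were unevenly spread among the genes. Across the 8 H3K27ac lists there were 144 member regions, 82 of Esrrg, 28 of Esrrb, 16 of Tfam, 10 of Nrf1 and 8 of Esrra. Across the 8 H3K4me2 lists there were 183, namely 90, 49, 17, 19 and 8. Esrra, a compact gene, thus had exactly 1 region per list for each mark, and the long genes Esrrb and Esrrg had most.

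Esrrg stood out among muscles by the number of its acetylated regions. It had 19 H3K27ac regions in Sol, 12 in EDL, 12 in Dia, 11 in Quad, 10 in Wt, 8 in Sed, 8 in mTg and 2 in Ex. These covered 53.7 kb in Sol, 33.1 kb in Dia, 31.8 kb in EDL and 19.8 kb in Quad, against 3.04 kb in Ex. Sol was highest although its list was shorter (34173 regions) than those of EDL (35750) and Quad (40949). The 2 regions in Ex were that over starts 2 and 3 and an intronic region at +194 kb (percentile 0.743). The Ex and Sed lists were of like length (34572 and 34031 regions), and the Sed libraries were deeper (20.7 and 23.7 M tags) than the Ex libraries (17.1 and 18.5 M). Each list is 1 call over 2 replicates, so a count has no replicate error. With regions kept only at an adjusted p-value against input under 0.001, the Esrrg counts were 10 in Sol, 7 in EDL, 6 in Dia, 5 in Quad, 2 in Sed, 2 in mTg, 1 in Wt and 0 in Ex. H3K4me2 showed a smaller spread. Esrrg had 14 H3K4me2 regions in Sol, 14 in EDL, 13 in Sed, 13 in the libraries labelled Wt, 11 in Quad, 10 in Dia, 10 in Ex and 5 in those labelled mTg, whose depth was 6.41 and 14.1 M tags. At the stricter p-value the H3K4me2 counts were 9 in EDL, 7 in Sol and 6 each in Quad and Dia. They were 5 each in Sed and Wt and 3 each in Ex and mTg.

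Esrrb, which encodes ERRβ, had 6 H3K27ac regions in Sol, 5 in Quad, 4 in Dia, 4 in mTg, 3 in EDL and 2 each in Sed, Ex and Wt. Covered length put Sol (13.5 kb) and Dia (9.38 kb) first and Wt (2.31 kb) and Sed (2.44 kb) last. At an adjusted p-value against input under 0.001, the Esrrb counts were 4 in Sol, 3 in Dia and 2 in EDL. They were 1 each in Quad, Sed and mTg and 0 in Ex and Wt.

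**Figure D1:**
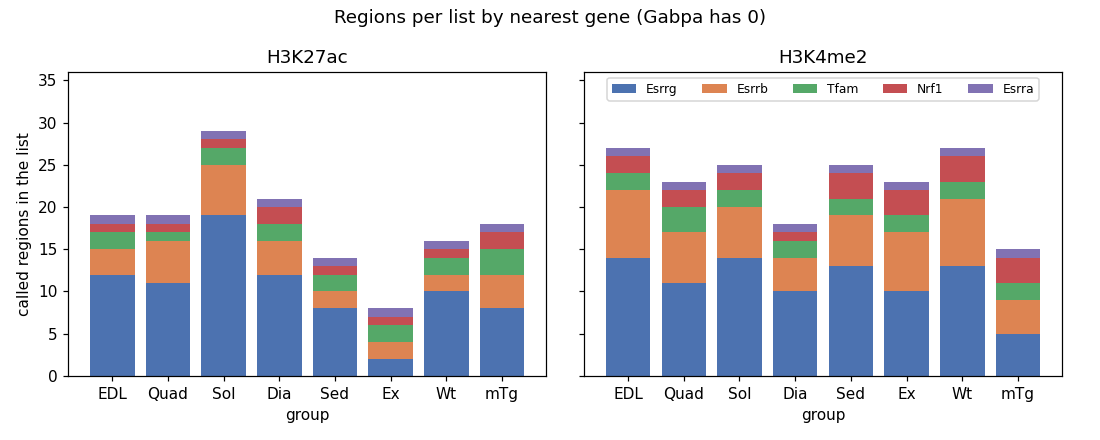
Called regions per list (y axis, number of regions) with a member as nearest gene, by group (x axis), for H3K27ac and H3K4me2. Stacked colours are the genes. The H3K27ac bar of Sol reaches 29 regions and that of Ex 8, with most of the difference in Esrrg.

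Levels were read as the deposited log2 level per kb of region width, and ranked as a percentile among all regions of the same list, since each list was normalized separately and levels in different lists share no scale. For that reason levels of different lists carry no test.

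Start sites of Esrra and Nrf1 were among the most acetylated regions of every list. Esrra, whose product ERRα drives oxidative genes together with PGC1α, had H3K27ac levels per kb of 7.90 ± 0.01 in EDL (SD, n = 2 here and for all levels), 7.55 ± 0.15 in Quad, 7.31 ± 0.03 in Sol, 8.09 ± 0.09 in Dia, 7.53 ± 0.01 in Sed, 7.01 ± 0.21 in Ex, 7.17 ± 0.16 in Wt and 7.39 ± 0.18 in mTg. Its percentile was lowest in Ex (86.2) and from 92.7 (Sol) to 97.2 (Wt) in the other 7 lists. In single libraries the Ex values were 85.7 and 86.2, and the lowest value elsewhere was 90.8 in a Sed library, so that Ex and the rest did not overlap on this scale. Of 18426 H3K27ac regions paired between the Ex and Sed lists, 56.7% had replicates that did not overlap in level, so separation from Sed was common. The upstream Nrf1 start ranked higher still, from 97.8 (Quad) to 99.8 (Sed). The downstream Nrf1 start was covered by 0 regions of either mark.

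Gabpa had no region of its own. Atp5j, a subunit gene of ATP synthase on the other strand, has a start on each side of the Gabpa start, and a region named after Atp5j covered the Gabpa start in all 8 H3K27ac lists at percentiles from 97.9 (Sed) to 99.9 (mTg). That neighbour was looked up after the absence of Gabpa had been seen. H3K4me2 regions covered the Gabpa start in 4 groups (EDL, Sol, Sed and the libraries labelled Wt). The acetylation there cannot be assigned to either gene.

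Tfam had 2 regions in most lists. H3K27ac covered its start in 7 groups, at percentiles from 59.9 (Dia) to 88.5 (Sol), and no region was called there in Quad, where H3K4me2 ranked at 85.1. A further, wide intergenic region was centred from -12.5 kb (Sed) to -13.6 kb (mTg) of the start for H3K27ac and was present in all 16 lists. Its H3K27ac percentile was 96.7 in mTg, 92.3 in Quad, 91.01 in Wt, 88.8 in EDL, 79.0 in Sed, 77.8 in Dia, 75.3 in Sol and 55.4 in Ex. In mTg it was listed as 2 regions, the other at 47.8. Ex was thus the lowest of the 8 groups by the stronger region.

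Esrrb used its start sites differently among the groups. The upstream start, at position 86361117 of chromosome 12, was covered by H3K27ac in 6 groups. Levels per kb were 7.62 ± 0.20 in Dia (percentile 87.4), 6.86 ± 0.43 in Sol (82.9), 6.53 ± 0.48 in EDL (63.4), 5.71 ± 0.44 in Quad (53.2), 5.70 ± 0.13 in Sed (35.3) and 5.30 ± 0.10 in Ex (23.4). Dia and Sol ranked highest, and both libraries of each stood at or above 74.4 in percentile for the strongest Esrrb region, above both libraries of EDL (73.9 and 61.7) by a narrow margin. In Wt and mTg the region began just past this start, 687 and 500 bases wide as listed, at percentiles of 55.3 and 62.0. A second acetylated segment about 11 kb into the gene was listed in Dia (percentile 73.2), Sol (68.7) and EDL (6.94) and in 0 of the 5 quadriceps groups.

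The downstream Esrrb start, at 86421644, gave a different order. H3K27ac was called there in 4 groups, with levels of 4.46 ± 0.14 in Quad (percentile 13.5), 5.75 ± 0.28 in Sol (44.0), 6.27 ± 0.20 in Dia (49.8) and 6.83 ± 0.41 in mTg (89.3). EDL, Sed, Ex and Wt had no region there. H3K4me2 was nevertheless called at this start in all 8 groups, at percentiles from 56.1 (libraries labelled mTg) to 79.6 (libraries labelled Wt). The start was thus marked by H3K4me2 in each group and by strong H3K27ac in mTg quadriceps.

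Esrrg has 4 starts over a long first part of the gene. Starts 2 and 3, close together at 187651758 and 187652241 of chromosome 1, were covered by H3K27ac in all 8 groups. The region there ranked at 89.2 in Sol, 79.9 in Dia, 74.6 in Wt, 71.9 in Sed, 67.9 in EDL, 64.9 in mTg, 58.1 in Ex and 51.2 in Quad. The 2 Ex libraries were far apart (levels of 6.77 and 5.39). The most upstream start, start 1 at 187609006, was covered in Dia (75.3), mTg (74.5), Sol (54.5) and EDL (30.1), and regions of Quad and Sed began just past it. Start 4, at 187997827, had H3K4me2 in all 8 groups (percentiles of 59.9 to 80.5) and H3K27ac in Quad only, near the bottom of that list (4.04).

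**Figure D2:**
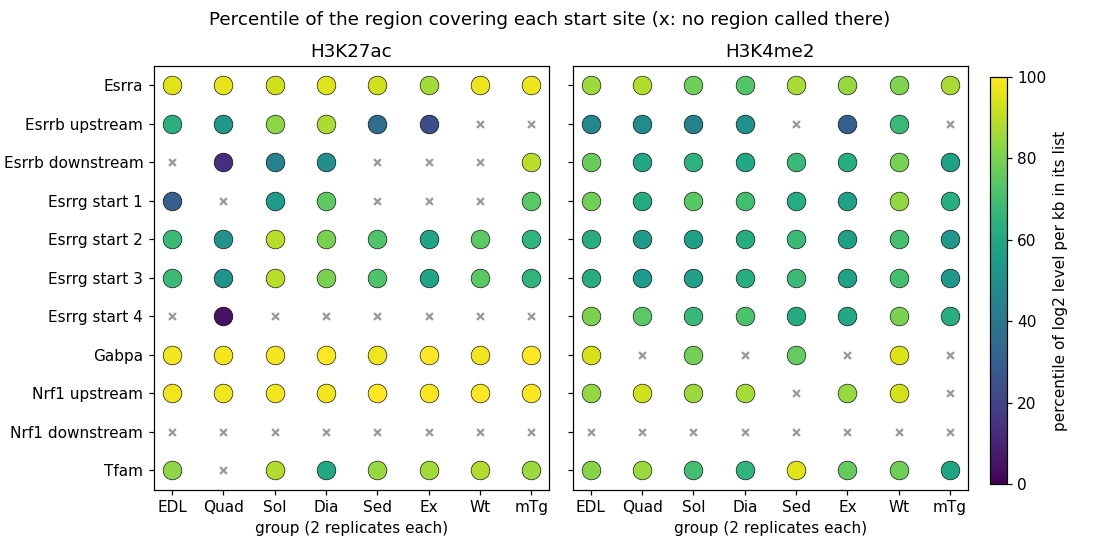
Percentile of the region that covers each RefSeq start site (rows), by group (x axis), for H3K27ac and H3K4me2; colour gives the percentile of its log2 level per kb among all regions of its list and a cross means that no region was called there. The Esrra, Gabpa and upstream Nrf1 rows are high throughout for H3K27ac, whereas the downstream Esrrb start is high (89.3) in mTg and Esrrg start 4 is listed in Quad alone.

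The order of groups by the strongest region of each ERR gene was therefore gene-specific. For Esrrb the within-list percentile ran in the order mTg 89.3, Dia 87.4, Sol 82.9, EDL 63.4, Wt 55.3, Quad 53.2, Sed 35.3 and Ex 23.4. Single-library values of mTg (92.2 and 85.4), Dia (90.3 and 83.9) and Sol (89.01 and 74.4) overlapped with each other, and those of Sed (40.3 and 30.0) did not overlap those of Ex (27.3 and 22.7). By level, replicates also did not overlap in 56.7% of all 18426 regions paired between Ex and Sed. For Esrrg the order was Sol 89.2, Dia 83.4, Wt 74.6, mTg 74.5, Sed 71.9, EDL 68.8, Quad 60.0 and Ex 58.1, and the Ex libraries (77.0 and 29.1) were so far apart that those of Quad, EDL and Sed all lay between them. Over 14159 genes and the 16 H3K27ac libraries, the genes whose strongest region followed Esrrb most closely were Mir466k (Pearson r = 0.95), Slc6a17 (0.95) and Ppara (0.92), the last encoding a receptor that drives fatty acid oxidation. Those nearest to Esrrg were P2rx5 (0.88), Lrp3 (0.85) and G630071F17Rik (0.85). A gene with no region in a list was entered there as 0, as Mir466k was in Sed and Ex. The r values are the highest picked from all genes compared, and no background of r was drawn. They are descriptions across 16 libraries that share groups, normalization and depth.

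Member regions of all groups were then merged where they overlapped. H3K27ac gave 35 member loci, of which 5 (14.3%) were present in all 8 groups and 7 (20%) in 1 group, against 21.8% and 29.4% of all 63451 merged loci. The 5 shared loci were the starts of Esrra and Nrf1, the upstream Esrrb start, Esrrg starts 2 and 3 and the distal Tfam region. Of the 23 Esrrg loci 1 was in all groups and 6 in 1 group, 3 of them in Sol, 2 in Quad and 1 in Sed. H3K4me2 gave 41 member loci, 8 (19.5%) in all groups and 13 (31.7%) in 1, against 25.7% and 27.9% of all 66361. Of the 23 Esrrg H3K27ac loci 18 also carried H3K4me2 in at least 1 group, and of the 7 of Esrrb 6 did, against 68.0% of all loci.

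**Figure D3:**
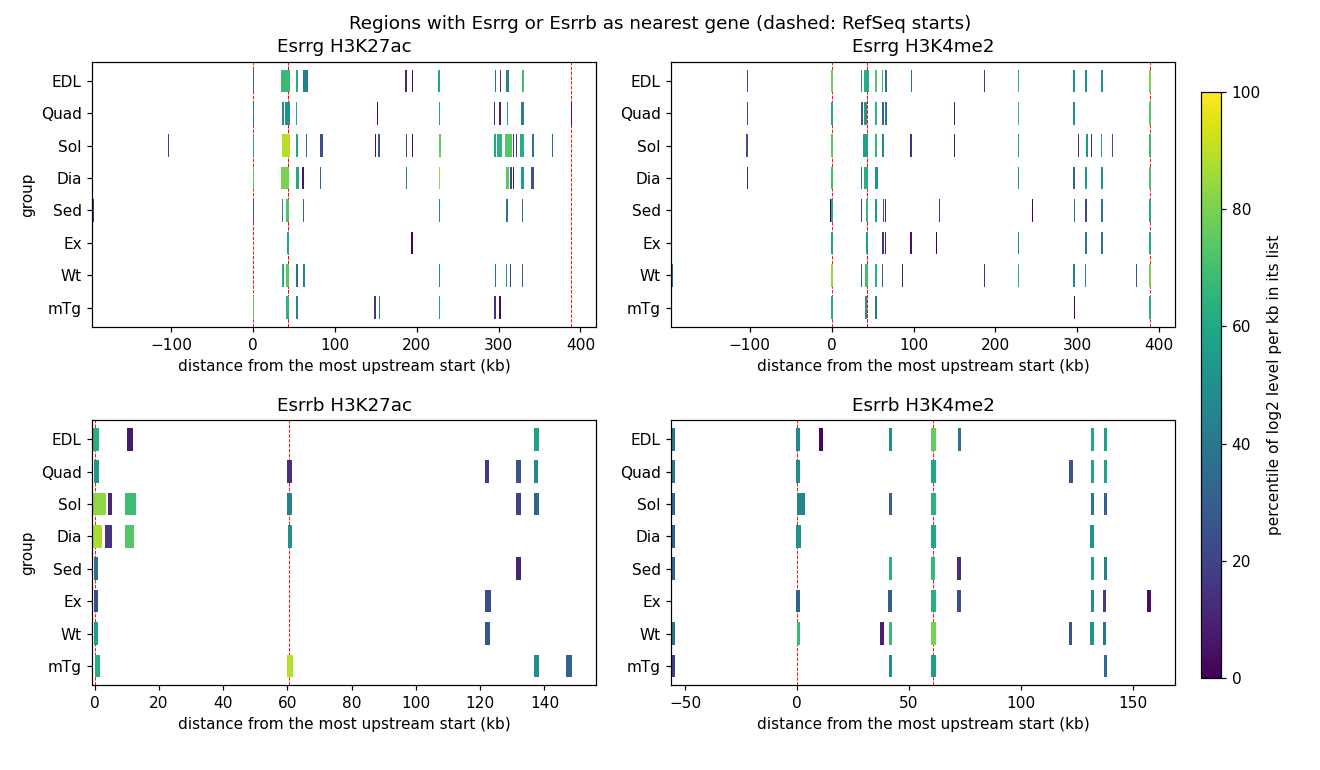
Position (x axis, kb from the most upstream start) of regions with Esrrg or Esrrb as nearest gene, by group (rows) and mark; colour gives the percentile of the log2 level per kb in its list and dashed lines are RefSeq starts. Sol has 19 Esrrg H3K27ac regions and Ex 2, whereas H3K4me2 regions number 14 and 10.

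To compare muscles region by region, each region was paired with at most 1 region of the other list, where each covered at least 50% of the other. A matched region was called when its log2 level per kb, centred on the median of all matched regions, differed over 2-fold and the replicates did not overlap. No test accompanies this rule. Between Sol and Quad, 3.74% of 19463 matched H3K27ac regions were called in either direction, as were 2 of 8 member regions, both higher in Sol. They were the region over Esrrg starts 2 and 3 (difference 1.41) and that at the downstream Esrrb start (1.22). The difference of means is centred on its own median, and each library on its own, so the library values that follow differ from it slightly. After centring, the Esrrg region stood at 0.99 and 0.62 in the Sol libraries and at -0.39 and -0.91 in the Quad libraries, and the Esrrb region at -0.37 and -0.78 against -1.73 and -1.95. The Esrrg region was wider in Sol (9217 bases) than in Quad (5948 bases). Neither region was matched any more at a reciprocal overlap of 80%, which left 0 calls.

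Between Dia and Quad, 4.26% of 18822 matched regions and 3 of 7 member regions were called, all higher in Dia. They were the same Esrrb and Esrrg regions (1.34 and 1.17) and an intronic Esrrg region at -161 kb (1.14). Between EDL and Quad, both fast-twitch muscles, 0.644% of 22530 regions and 1 of 10 member regions were called, an Esrrg region at -93.0 kb (1.17). At 80% overlap 1 call was left for Dia, the region at -161 kb, and 0 for EDL. Without Quad replicate 2, Dia had 1 call and EDL 0, and without EDL replicate 1 EDL also had 0. All 3 comparisons share the Quad libraries. Esrra and Nrf1 starts differed from Quad by -0.30 to 0.19 in these comparisons, and the distal Tfam region by -0.73 in Sol, -0.51 in Dia and -0.09 in EDL. Between untreated quadriceps sets, 0 of 8 member regions were called for Sed against Quad (all regions 1.07%) and 0 of 6 for Wt against Quad (1.36%). Even so, the region over Esrrg starts 2 and 3 was higher than in Quad by 0.86 in Sed and by 0.57 in Wt, and the Nrf1 start by 0.60 in Sed. Part of the distance of Sol and Dia from Quad at this Esrrg region was therefore also seen between quadriceps sets.

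With H3K4me2, 1 of 17 member regions was called between Sol and Quad (all regions 1.88%), a region at -21.0 kb of Nrf1 (1.20). For Dia against Quad 0 of 15 were called (1.58%) and for EDL against Quad 0 of 19 (0.453%). The same Nrf1 region was also called for Sed against Quad (1.03, 1 of 15 regions, 0.739%), and Wt against Quad gave 0 of 17 (2.69%). The Nrf1 difference was therefore also present between untreated quadriceps sets. At 80% overlap 0 H3K4me2 calls were left in any comparison.

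Acetylation was lower in exercised quadriceps at regions of Tfam and Esrrg. Of 16 merged member regions in Sed and Ex, 3 were in the list of hypoacetylated exercise-modified regions (EMRs) and 0 in the hyperacetylated list, against 5.43% and 0.909% of all 42011. By gene, 2 of the 5 members with a region (Esrrg and Tfam) were hypoacetylated against 10.6% of 14816 genes, and 0 were hyperacetylated against 2.34%. The authors selected these regions for differing, so levels in them describe how far replicates separate and are not independent evidence. By limma, 99.7% of the hypoacetylated regions passed an adjusted p-value of 0.05, the 3 member regions among them. Markers of other cells moved with this contrast, though not all in the same direction. The median percentile of their strongest regions was 62.8 in Sed and 82.7 in Ex for 4 endothelial genes, 63.7 and 79.6 for 4 fibroblast genes and 11.8 and 34.4 for macrophage genes (3 and 4 of 4 with a region), against 85.7 and 79.6 for muscle fiber genes (6 and 7 of 8). The adipocyte median was also higher in Ex (30.3 in Sed and 47.1 in Ex, 1 and 3 of 3 with a region). The satellite cell median was lower (15.97 and 9.09, 2 and 1 of 2 with a region). So was the neuronal median (71.5 and 55.99, 2 of 2 with a region in each). The part of these cells in the differences was not tested.

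The distal Tfam region at -12.5 kb had deposited log2 levels of 9.62 and 9.65 in Sed and 8.80 and 8.65 in Ex. It fell by 0.91 ± 0.21 (SE) on the log2 scale (limma adjusted p = 1.62e-04), where the median over the list was -0.76. The Esrrg region at -78.3 kb had levels of 6.83 and 6.16 in Sed and 5.92 and 5.84 in Ex, and fell by 0.61 ± 0.21 (limma adjusted p = 0.00546). The Esrrg region at +62.3 kb had 5.15 and 4.91 in Sed and 4.43 and 4.46 in Ex, and fell by 0.58 ± 0.21 (limma adjusted p = 0.00766). In each of the 3, both Ex libraries lay below both Sed libraries. The Ex and Sed libraries did not overlap in all 2280 regions of the list, so this does not set the 3 apart. Limma gave all 3 the same SE. Both Esrrg calls were lost when certain libraries were left out, which leaves 1 library in a group. At -78.3 kb the difference was -0.28 without Sed replicate 1 (limma adjusted p = 0.205) and, close to its full size, -0.57 without Ex replicate 2 (limma adjusted p = 0.0752). At +62.3 kb the size was kept, at -0.57 without Ex replicate 1 and -0.59 without Ex replicate 2 (limma adjusted p = 0.0666 and 0.0678). Quantile normalization, which removes a shift common to the whole list, left 0 of the 3 calls and turned the difference at -78.3 kb to 0.091.

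Between Ex and Sed peak lists, 0 of 6 matched member H3K27ac regions passed the 2-fold rule (all regions 3.17%), among them the distal Tfam region (-0.79), the Esrra start (-0.42), the upstream Esrrb start (-0.30) and the Tfam start (0.00). For H3K4me2 0 of 14 passed (0.0925%).

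In mTg quadriceps, acetylation was higher at regions of Esrrb and Esrrg, and no region of another member was listed. Of 23 merged member regions in Wt and mTg, 5 were in the list of hyperacetylated PGC1α-modified regions (PMRs) and 0 in the hypoacetylated list, against 3.27% and 1.51% of all 55876. By gene, 2 of 5 were hyperacetylated against 9.22% of 15287 genes, and 0 hypoacetylated against 4.38%. By limma, 100% of the hyperacetylated regions passed an adjusted p-value of 0.05, so a call there does not set a region apart. From Wt to mTg the medians of most other cells' markers were lower. They were 74.8 and 52.3 for the endothelial, 81.5 and 50.8 for the fibroblast and 53.0 and 31.3 for the macrophage genes (4 and 3 of 4 with a region). Adipocyte (55.6 and 35.1) and neuronal medians (78.6 and 59.3) were also lower. The satellite cell median was not (42.1 and 43.0, 2 and 1 of 2 with a region), and the muscle fiber medians were 96.4 and 96.5 (7 and 6 of 8). The part of these cells in the differences was not tested.

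The downstream Esrrb start had deposited log2 levels of 6.05 and 6.07 in Wt and 8.11 and 7.69 in mTg, and rose by 1.85 ± 0.14 (limma adjusted p = 7.47e-11). The Esrrg region at +0.815 kb, over start 1, had 5.59 and 5.76 in Wt and 7.09 and 7.29 in mTg, and rose by 1.51 ± 0.13 (limma adjusted p = 6.14e-10). Among the 1828 regions of the list, whose median was 0.74, these sizes stood at the 99.7 and 98.3 percentiles. The other 3 regions were intronic and changed less than the median region did. They were Esrrb at +77.0 kb (0.65 ± 0.13), Esrrb at +87.2 kb (0.51 ± 0.12) and Esrrg at +154 kb (0.44 ± 0.13). Their limma adjusted p-values were 3.92e-05, 4.50e-04 and 0.00282. For the last, the difference was 0.40 without Wt replicate 2 (limma adjusted p = 0.0693), close to its full size, and 0.26 without mTg replicate 2 (limma adjusted p = 0.109). Quantile normalization left the calls at the downstream Esrrb start and at Esrrg start 1 and turned the other 3 differences to values from -0.15 to -0.041. In all 5 regions both mTg libraries lay above both Wt libraries. The mTg and Wt libraries did not overlap in all 1828 regions of the list, so this does not set the 5 apart.

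The 5 regions differed in where else they were seen. The Esrrg region at +154 kb was listed for H3K27ac in Sol and mTg, the Esrrb region at +87.2 kb in mTg alone, and neither carried H3K4me2 in any group. The Esrrb region at +77.0 kb was listed in EDL, Quad, Sol and mTg and carried H3K4me2 in 7 groups. Both start regions carried H3K4me2 in all 8. 0 of the 5 was called in Wt, so none of them could be matched. Of the 6 member H3K27ac regions that were matched between mTg and Wt, 0 passed the 2-fold rule (all regions 4.64%). The matched Esrra start differed by 0.29, the Nrf1 start by 0.09 and the Tfam start by 0.17. For H3K4me2, 1 of 12 passed (0.724%), an Esrrg region at -92.6 kb that was lower in the libraries labelled mTg (-1.31).

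**Figure D4:**
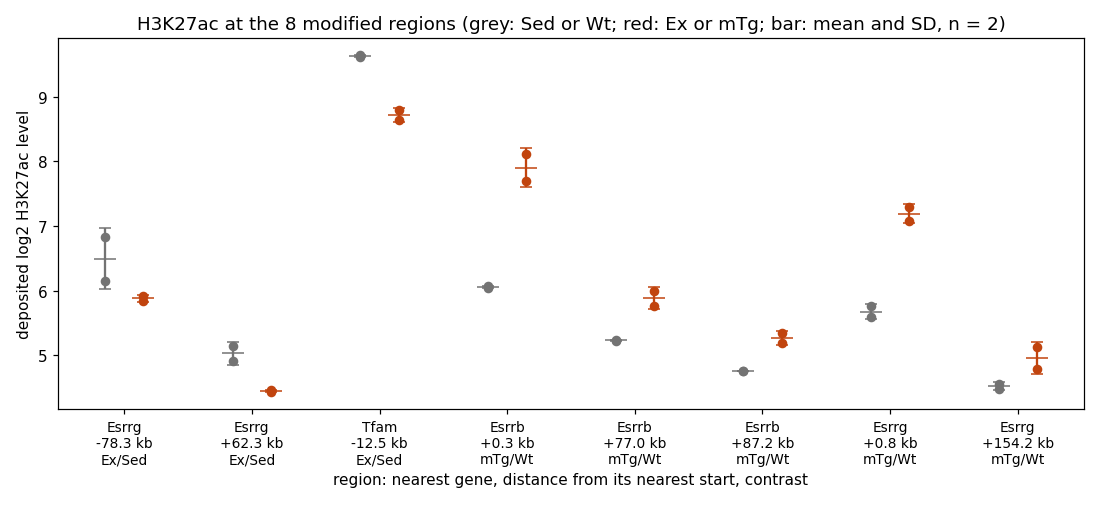
Deposited log2 H3K27ac level (y axis) of each library at the 8 member regions in the authors' lists of exercise- or PGC1α-modified regions (x axis); points are libraries, bars are the mean and SD of 2. The Esrrb region at +0.3 kb rises from 6.06 to 7.90 and the Esrrg region at +0.8 kb from 5.68 to 7.19, whereas the Tfam region at -12.5 kb falls from 9.63 to 8.72. After quantile normalization 4 of the 8 differences change sign.

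Partners and targets of the members were counted by lists of named genes. Of the mitochondrial biogenesis regulators with an H3K27ac region in Sed or Ex, 5 of 17 had a hypoacetylated EMR (Ppargc1a, Ppargc1b, Perm1, Nrip1 and Nfe2l2) and 0 a hyperacetylated one, beside the 10.6% and 2.34% of all genes. The largest decreases were at Ppargc1a, the coactivator gene itself (-0.98 ± 0.21), Perm1, a muscle regulator downstream of PGC1 and ERR (-0.87 ± 0.21), and Nrip1, a corepressor of oxidative genes (-0.85 ± 0.21). Of the known ERR target genes 5 of 15 had a hypoacetylated EMR, among them Pdk4, which restrains pyruvate oxidation (-0.92), and Vegfa, an angiogenic factor (-0.80). In mTg, 3 of 16 regulators had a hyperacetylated PMR (Ppargc1b 0.86, the corepressor gene Ncor1 0.84 and Ppargc1a 0.59), beside 9.22% of all genes, and 1 a hypoacetylated PMR (Ppargc1b, -0.49). The hyperacetylated Ppargc1a region was intergenic, 422 kb from the start, and was assigned by nearest gene only. ERR targets were hyperacetylated for 3 of 15, namely Fabp3, a fatty acid carrier (1.25), Ppara (1.04) and Cpt1b, the gate of mitochondrial fatty acid uptake (0.54). Both lists were drawn up with earlier results of these data known.

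Other readouts at the member regions were compared with those at all regions of the same list. Between 55.6% (mTg) and 89.5% (EDL) of member H3K27ac regions overlapped H3K4me2 of the same group, where all regions gave 44.9% (mTg) to 71.5% (EDL). Members were not above all regions throughout. In Dia the shares were 57.1% of 21 member regions and 60.0% of all, and in Sol 65.5% of 29 and 64.1%. In Quad, 11 of 19 member H3K27ac regions lay in accessible chromatin by ATAC-seq (57.9%, Wilson 95% interval 36.3 to 76.9), against 57.2% of all. These were 5 of Esrrg, 3 of Esrrb and 1 each of Tfam, Esrra and Nrf1. MED1, a mediator subunit found at active enhancers, was present at the Esrra start in Quad, at the Nrf1 start in EDL and Sol, at Esrrg start 2 in Sol and at the Esrrg intronic region near -78 kb in Sol and Dia. The last is 1 of the 3 member regions listed as hypoacetylated with exercise. That change was read in quadriceps, where no MED1 peak was called at this region. MED1 thus lay in 1 of 19 member H3K27ac regions in Quad, 1 of 19 in EDL, 3 of 29 in Sol and 1 of 21 in Dia. The shares of all regions were 3.76%, 1.12%, 5.34% and 4.16%, so that the counts are too small to set the members apart. NFAT, a calcineurin-dependent factor of slow-twitch muscle, lay in 1 of 29 member regions in Sol (3.45%, all regions 3.02%), at Esrrb +71.4 kb, and in 0 of 19 in Quad (upper Wilson limit 16.8%). Each factor had 1 library per muscle, and the intervals cover counting error over regions only.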

How the data were processed

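H3K27ac and H3K4me2 ChIP-seq of 8 groups with 2 replicates each was used, with Quad ATAC-seq, MED1 and NFAT peaks as further readouts. Per the labels, the authors aligned reads with Bowtie (1.2) to mm10, kept 1 tag per position and called peaks with HOMER and DESeq2 over both replicates against input, at a fold of 2 and an FDR of 0.05. ATAC lists of exercised and transgenic mice and all footprint lists were not on mm10 and were not used here. The deposited tag columns are log2 values, taken as DESeq2's regularized log, normalized by the authors within each list, which shrinks differences of weak regions. Lists of different groups were therefore compared without a test. The deposited p-value and fold columns against input were used for stricter thresholds, and the signal of the ATAC list and the peak score only to rank or place regions. The authors' own fold changes and p-values between conditions were not used.

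Computed here were the log2 level per kb, its percentile within a list (pandas 2.3.3, numpy 2.4.6), merged loci at an overlap of at least 1 bp and matched regions at 50% reciprocal overlap. Within the 4 lists of altered regions, where all 4 libraries were normalized together, limma 3.58.1 (R 4.3.3) was run over each whole list, two-sided, with Benjamini-Hochberg adjustment. The routine was tested on simulated data. Sequences and start sites came from RefSeq (GRCm38.p6, 11 starts matched for the 6 members). Counting intervals are Wilson 95%.

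The planned rule named all 6 members, the 3 list genes with the largest limma difference per contrast, and the 3 genes with the highest Pearson r for members whose percentile spanned at least 30 points. A gene that this rule names is not reported here. Further called genes of the lists, and Atp5j, were named after their values were seen. The members and lists were chosen with earlier results of these data known. Nothing in the labels pairs replicates, and p-values measure only the spread between these samples. Alternatives were a stricter threshold against input, 4-fold enrichment, equal list lengths, whole-region levels, no centring, 80% overlap, quantile normalization, a replicate block and leaving out each replicate.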

Additional observations from a re-analysis of the deposited data

How the results depend on the processing

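With an adjusted p-value against input under 0.001, member regions fell from 144 to 76 for H3K27ac and from 183 to 102 for H3K4me2, H3K27ac loci from 35 to 20 (in all 8 groups from 5 to 3) and H3K4me2 loci from 41 to 21 (in 1 group from 13 to 5; 8 with lists of equal length). The median percentile of the strongest H3K4me2 region was 84.3 with input subtracted (78.8 without), and that of the H3K27ac region at the start was 75.3 without scaling to width (86.2 with). Matched member regions called over the 5 comparisons numbered 6 for H3K27ac, against 1 at 80% overlap, 11 on whole-region levels, 3 by percentiles and 5 to 8 with 1 replicate left out. For H3K4me2 they numbered 2, against 0, 5 on whole-region levels, 5 without centring and 1 to 3. Quantile normalization, which by construction removes a list's common shift, left 0 of 3 EMR and 2 of 5 PMR member calls. It moved the list medians to 0.02 and -0.05, and turned Esrrg at -78.3 kb to 0.091, Esrrb at +77.0 kb to -0.041, Esrrb at +87.2 kb to -0.12 and Esrrg at +154 kb to -0.15. Left-out replicates gave 1 to 3 EMR calls, the lowest without Ex replicate 2, and 4 to 5 PMR calls. The replicate block left 3 and 5 calls, so it changed no member call. Replicate differences correlated across regions at 0.144 and 0.106 in the EMR lists and -0.0386 and -0.242 in the PMR lists, which does not establish pairing. The crossed pairing of Wt and mTg, added after seeing the data, also left 5 calls and all 1828 and 844 regions called. Other alternatives for these counts stayed within 1.5 times. The stricter p-value planned for the pathway lists was not run, since the authors' p-values between conditions were not used. Depths of 6.41 to 24.2 M tags and 2 replicates limit what weak regions can show.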

Other observations

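Of the factor sites near the members, some lay outside histone-marked regions, as many sites of these lists did. In the Sol NFAT list of 39661 peaks, 15 had a member as nearest gene, 8 of Esrrg, 4 of Esrrb and 3 of Nrf1. Of these 15, 1 overlapped an H3K27ac region of Sol, against 2.69% of all peaks of that list. It was the Esrrb site at +71.05 kb of the downstream start. In the Quad NFAT list of 485 peaks both member sites were near Esrrg (163 kb past start 3 and at -168 kb of start 1) and overlapped neither mark in Quad, where 3.92% of all peaks overlapped H3K27ac. Of the 5 member MED1 peaks in Quad, the Esrra site overlapped both marks. The Tfam site at +0.19 kb overlapped H3K4me2 but no H3K27ac region. Those of Esrrb (+7.36 kb of the upstream start), Esrrg (-149 kb of start 4) and Nrf1 overlapped neither mark. The Nrf1 site was intronic, and its listed distance of -3.61 kb runs from a further annotated start, not from either Nrf1 start described above. Of all 3593 MED1 peaks in Quad 44.9% overlapped H3K27ac. Each of these lists came from 1 library.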
